A study of Mus musculus with 9 samples.

Results

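Oligodendrocyte and myelin genes were followed across 9 RNA-seq libraries of a mouse brain block labelled as hypothalamus. The 29 genes were taken by symbol from a table of 49585 genes, and all 29 were found. They are 11 genes of the myelin membrane and its cytoskeleton, 7 of lipid synthesis and metabolism, 5 transcription factors, and 6 receptor, channel and stage genes. The mice were wildtype C57BL/6J males, 8 to 15 weeks old. There were 3 groups of 3 libraries each. CTRL mice moved freely for 120 min without sevoflurane, an inhaled anesthetic whose dose is given as a multiple of the minimum alveolar concentration (MAC). Mice of the 0.7 MAC group were held at that dose for 120 min, under which breathing stays normal (eupnea). Mice of the 2.0 MAC group received the high dose for 30 min, which induced gasping-like respiration, followed by 0.7 MAC for 90 min, so its RNA was taken after the return to the lower dose. Both sevoflurane groups were anesthetized under hyperoxia, and all mice were perfused with ice-cold buffer under anesthesia before the brain was taken. According to the study's methods the sample was what remained after removal of the cortex, cerebellum and olfactory bulb, so it can hold striatum, thalamus, midbrain and hindbrain beside the hypothalamus. The extraction text in the labels instead names whole brain and neurospheres, and the treatment text leaves unclear whether CTRL mice also went through a first induction. The labels do not say that each library came from a separate mouse, so p-values measure the spread between these libraries.

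Oligodendrocytes wrap the axons of the central nervous system in myelin, a stack of lipid-rich membrane that speeds conduction and feeds the axon. Their precursors divide in the adult brain, and the transcription factors Olig1, Olig2, Sox10, Nkx6-2 and Myrf carry the lineage toward the myelinating cell. A mature cell devotes much of its mRNA to a few structural proteins, among them myelin basic protein (Mbp), which holds the cytoplasmic faces of the membrane together, and to enzymes that make galactolipids and sterols. White matter tracts and the hindbrain hold more of these cells than gray matter of the forebrain.

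All 9 libraries carried the mature program at high levels. Exon-based reads, as deposited, totalled 5321491 to 7178568 per library, and levels are given as CPM, counts scaled to library size with trimmed mean of M-values factors. The 29 genes took 0.686 to 1.12% of these reads, and Mbp alone gave 43.5% of the reads of the 29. Per kilobase of exon, Mbp averaged 459 CPM per kb in CTRL, 380 CPM per kb in 0.7 MAC and 548 CPM per kb in 2.0 MAC libraries. The next was Cnp, a phosphodiesterase of the non-compact myelin, with 151 CPM per kb over all libraries. The lowest was Gpr17, a receptor of precursors about to differentiate, with 0.271 CPM per kb. Gpr17 overlaps Lims2 on the opposite strand, and only 2.76% of the reads on its exons could be assigned to it by the counting used here, so its values rest on few reads. By the same measure Mobp kept 39.9%, Trf 50.7% and Pllp 55.9% of their exon reads, and the other members 88.1% or more. The library kit kept the strand, but no source used here says whether the counting did.

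For 20 of the 29 genes the RefSeq table of the GRCm38.p6 build held a promoter window, from 250 bases before to 50 bases after a start site. These were searched on both strands for the letters that the lineage's own factors are known to bind. The SOX letters ACAAAG or ACAATG were in 11 of 20 genes (55%), against 31.7% of all 27025 genes with a window. The MYRF letters CTGGCAC or CTGGTAC were in 4 of 20 genes (20%), against 8.1% of all genes. The E-box CAGCTG or CAGATG, one of the forms that OLIG factors bind, was in 6 of 20 genes (30%), against 33.4% of all genes. A match is a description of these letters and not a binding site. The bases upstream of the gene are shown for 5 members of the myelin membrane whose windows held SOX or MYRF letters, 5′ to 3′ on the gene's strand, with those letters or their reverse complement in capitals.
Mag, chr7:30914874-30915113, minus strand: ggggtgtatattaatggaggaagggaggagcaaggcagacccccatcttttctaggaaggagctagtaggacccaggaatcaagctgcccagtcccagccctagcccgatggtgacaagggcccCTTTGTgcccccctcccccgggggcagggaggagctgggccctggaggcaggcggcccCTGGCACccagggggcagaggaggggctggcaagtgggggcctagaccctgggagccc
Cnp, chr11:100574689-100574903, plus strand: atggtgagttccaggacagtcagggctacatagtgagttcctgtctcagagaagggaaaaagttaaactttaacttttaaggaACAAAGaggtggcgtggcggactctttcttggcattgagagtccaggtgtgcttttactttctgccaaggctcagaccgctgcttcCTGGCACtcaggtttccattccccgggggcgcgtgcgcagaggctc
Mog, chr17:37023399-37023648, minus strand: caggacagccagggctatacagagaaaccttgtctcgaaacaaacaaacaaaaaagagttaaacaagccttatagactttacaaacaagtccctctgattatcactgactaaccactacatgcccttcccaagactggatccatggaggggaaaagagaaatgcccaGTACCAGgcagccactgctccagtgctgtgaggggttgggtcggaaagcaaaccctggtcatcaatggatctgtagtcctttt
Mobp, chr9:120149492-120149706, plus strand: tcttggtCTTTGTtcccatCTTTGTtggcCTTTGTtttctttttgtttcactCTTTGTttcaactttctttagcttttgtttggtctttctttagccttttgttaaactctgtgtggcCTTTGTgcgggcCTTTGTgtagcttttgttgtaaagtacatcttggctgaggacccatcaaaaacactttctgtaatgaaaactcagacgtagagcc
Opalin, chr19:41077114-41077363, minus strand: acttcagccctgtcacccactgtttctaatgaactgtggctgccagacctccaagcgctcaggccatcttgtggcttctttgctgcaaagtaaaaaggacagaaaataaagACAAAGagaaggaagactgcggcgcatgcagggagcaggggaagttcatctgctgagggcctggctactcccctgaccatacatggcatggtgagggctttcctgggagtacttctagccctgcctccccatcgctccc
Mag, Cnp, Mog and Opalin were the 4 genes with MYRF letters in the 300-base window, those of Opalin lying after its start site and so outside the stretch shown. Mobp carried SOX letters 6 times in the 215 bases shown, all on the opposite strand. Mbp, Fa2h, Sox10, Olig1, Myrf, Bcas1, Gpr17, Trf and Car2 had no entry in the table.

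The first comparison asked how the brief deep dose differed from steady light anesthesia. In 2.0 MAC libraries 27 of the 29 genes were higher than in 0.7 MAC libraries at an adjusted p under 0.05 (edgeR quasi-likelihood test, Benjamini-Hochberg over 14140 genes), where 5.98% of all tested genes were higher. All 29 log2 fold changes were positive, with a median of 0.50 (1.41-fold) and a range of 0.27 to 0.72, beside a median of 0.004 over all genes. None reached 2-fold, which 0.127% of all genes did upward. The 3 libraries of each group did not overlap in 25 of the 29 genes, against 14.9% of all genes in this direction. A bulk sample cannot tell more cells of a type from more RNA per cell. Mean levels were lowest in 0.7 MAC and highest in 2.0 MAC for 28 of the 29 genes, with CTRL between. The exception was Gpr17, whose mean was highest in CTRL.

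**Figure D1:**
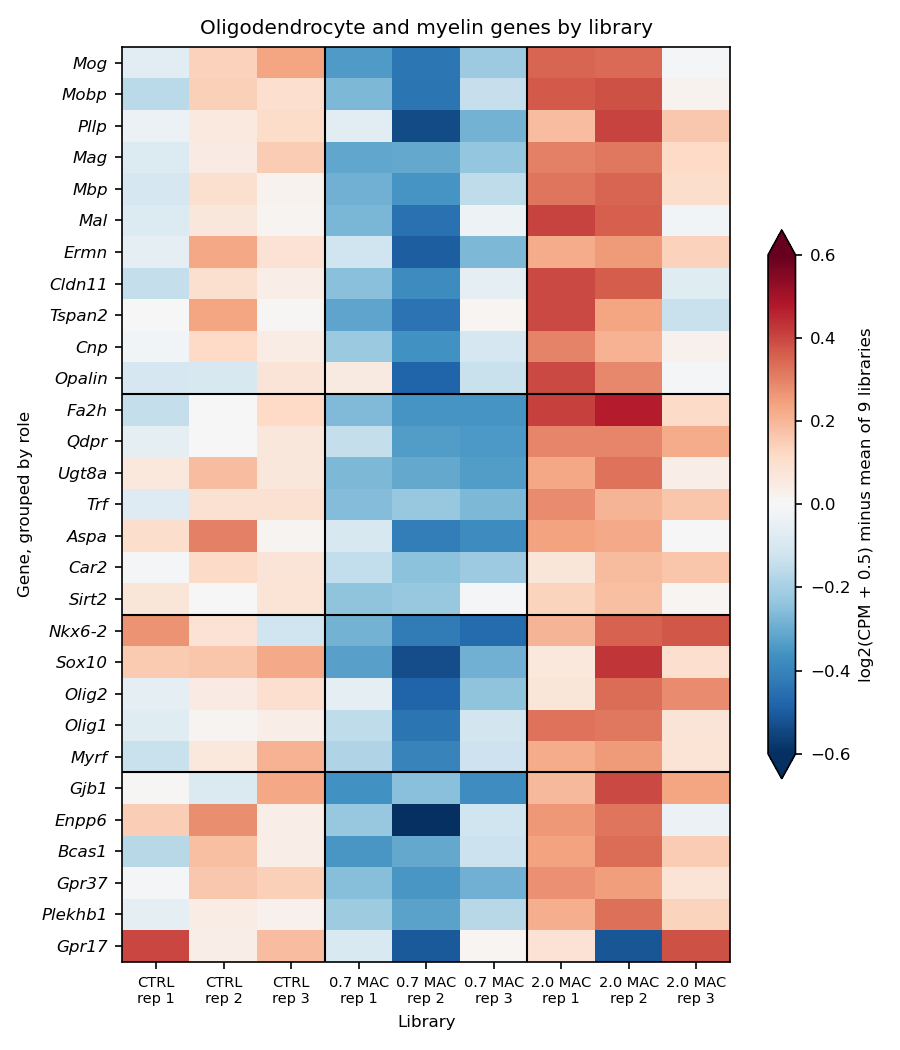
Level of each of the 29 genes in each library, as log2(CPM + 0.5) minus the gene's mean over the 9 libraries (color scale from -0.6 to 0.6), with genes in rows grouped by role and libraries in columns by group. The 0.7 MAC columns are mostly blue and the 2.0 MAC columns mostly red, with 2.0 MAC replicate 3 paler than replicates 1 and 2.

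Of the 11 membrane and cytoskeleton genes 10 rose, with a median log2 fold change of 0.50. Mbp had 4799.7, 4893 and 4132 CPM in 2.0 MAC libraries, against 3142, 2998 and 3451 CPM in 0.7 MAC libraries. The lowest 2.0 MAC library lay above the highest 0.7 MAC library, and the log2 fold change was 0.53 ± 0.068 (SE, adjusted p = 7.27e-05). Mag, an adhesion protein of the inner myelin layer facing the axon (chr7:30899176-30914873, minus strand), had 418, 421 and 367 CPM in 2.0 MAC libraries and 273, 273 and 288 CPM in 0.7 MAC libraries. The 0.7 MAC libraries had an SD of only 8.72 CPM, the groups did not overlap, and Mag rose by 0.53 ± 0.065 (SE, adjusted p = 4.75e-05). Mog, a glycoprotein of the outermost myelin surface (chr17:37010743-37023398, minus strand), had 132, 131 and 102 CPM in 2.0 MAC libraries and 81.6, 76.5 and 88.9 CPM in 0.7 MAC libraries, with no overlap and a log2 fold change of 0.56 (adjusted p = 9.42e-04). Mobp, a small basic protein of compact myelin, rose by 0.54 and Pllp, a proteolipid of myelin membrane, by 0.54, both also when every exon read was counted (0.56 and 0.55). Mal, which helps sort membrane proteins, rose by 0.50, Ermn, a cytoskeletal protein of the myelin sheath, by 0.49, and Cnp by 0.41. Cldn11, which seals the myelin lamellae with tight junctions, rose by 0.46 although its groups overlapped, with 222 CPM in 2.0 MAC replicate 3 and 225 CPM in 0.7 MAC replicate 3. Tspan2, a tetraspanin of the myelin membrane, rose by 0.42 (adjusted p = 0.0261) with 362, 324 and 251 CPM in 2.0 MAC libraries and 220.5, 202 and 277 CPM in 0.7 MAC libraries. Its groups overlapped, and the call was lost in 6 of the alternatives, leaving out 0.7 MAC replicate 1 or 2 or 2.0 MAC replicate 1 or 2 among them (adjusted p up to 0.15). Opalin, a sialylated membrane glycoprotein of oligodendrocytes (chr19:41062474-41077113, minus strand), did not pass (log2 fold change 0.39, adjusted p = 0.0535). It had 36.9, 34.2 and 27.8 CPM in 2.0 MAC libraries and 28.97, 19.9 and 25.4 CPM in 0.7 MAC libraries, which overlapped by 1 library of each group.

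All 7 genes of lipid synthesis and metabolism rose, with a median log2 fold change of 0.47, and none of them overlapped between the groups. Fa2h, which hydroxylates the fatty acids of myelin sphingolipids (chr8:111345135-111393824, minus strand), had 84.0, 87.6 and 68.4 CPM in 2.0 MAC libraries and 52.5, 49.2 and 49.3 CPM in 0.7 MAC libraries. It had the highest log2 fold change of the 7, at 0.66 ± 0.095 (SE, adjusted p = 1.73e-04). Ugt8a, the galactosyltransferase that makes galactocerebroside (chr3:125865271-125938619, minus strand), had 205, 218 and 179 CPM in 2.0 MAC libraries and 144, 141 and 138 CPM in 0.7 MAC libraries. The groups did not overlap, the SD was 19.95 CPM in 2.0 MAC and 3.14 CPM in 0.7 MAC libraries, and the log2 fold change was 0.51 (adjusted p = 9.42e-05). Qdpr, which regenerates the cofactor tetrahydrobiopterin (chr5:45434021-45450236, minus strand), had 249, 249 and 237 CPM in 2.0 MAC libraries and 184, 161 and 159.9 CPM in 0.7 MAC libraries. It had the smallest p of the 29 genes (log2 fold change 0.54 ± 0.061, adjusted p = 2.34e-05). Trf, the iron carrier transferrin, had 408, 386 and 376 CPM in 2.0 MAC libraries and 280.1, 286 and 278 CPM in 0.7 MAC libraries (log2 fold change 0.47, adjusted p = 3.24e-05). Its exons are shared with Gm20425 on the same strand, and with every exon read counted the log2 fold change was 0.47. Aspa, which splits N-acetylaspartate, rose by 0.45 and Car2, a carbonic anhydrase, by 0.35. Sirt2, a tubulin deacetylase abundant in myelin, rose least, with 132, 137 and 122 CPM in 2.0 MAC libraries and 102, 103 and 119 CPM in 0.7 MAC libraries (0.27, adjusted p = 0.0147). Its call was lost without 0.7 MAC replicate 1 or 2.0 MAC replicate 1 or 2 (adjusted p up to 0.0851).

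The 5 transcription factors of the lineage also rose, without overlap. Nkx6-2, a homeodomain factor of maturing oligodendrocytes (chr7:139579376-139582797, minus strand), had 21.9, 24.4 and 24.7 CPM in 2.0 MAC libraries and 15.5, 14.0 and 13.6 CPM in 0.7 MAC libraries. At 0.72 ± 0.12 (SE, adjusted p = 6.39e-04, 1.65-fold) it had the highest fold change of the 29 genes. Sox10, which drives myelin genes (chr15:79154913-79164490, minus strand), had 51.9, 67.0 and 53.3 CPM in 2.0 MAC libraries and 39.6, 34.2 and 40.6 CPM in 0.7 MAC libraries (0.59, adjusted p = 7.24e-04). Its 2.0 MAC replicate 2 stood above the other two. Olig2, which sets the lineage, rose by 0.49, Olig1, its neighbor on chromosome 16, by 0.47 and Myrf, a factor needed for myelination in mice, by 0.42. Olig2 and Sox10 are on in precursors as well as in mature cells.

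Of the 6 receptor, channel and stage genes 5 rose. Gjb1, a gap junction protein of oligodendrocytes (chrX:101376378-101385629, plus strand), had 28.6, 32.9 and 29.4 CPM in 2.0 MAC libraries and 19.2, 20.9 and 19.1 CPM in 0.7 MAC libraries. The groups were well apart, with a log2 fold change of 0.62 ± 0.11 (SE, adjusted p = 7.53e-04). Gpr37, a receptor of maturing oligodendrocytes (chr6:25665878-25690729, minus strand), had 178, 175 and 155 CPM in 2.0 MAC libraries and 123, 115 and 120.0 CPM in 0.7 MAC libraries (0.50, adjusted p = 7.55e-05). Plekhb1, a membrane-binding protein with a pleckstrin homology domain, rose by 0.46 (adjusted p = 5.77e-05) and Bcas1, which marks cells in early myelination, by 0.51. Enpp6, a choline phosphodiesterase of newly forming oligodendrocytes, rose by 0.51 (adjusted p = 0.0163), with 32.5, 33.9 and 26.4 CPM in 2.0 MAC libraries and 22.98, 16.8 and 24.8 CPM in 0.7 MAC libraries. Without 0.7 MAC replicate 2 or 2.0 MAC replicate 1 or 2 it did not pass (adjusted p up to 0.0874). Gpr17 did not pass, with 1.48, 0.807 and 1.93 CPM in 2.0 MAC libraries and 1.254, 0.815 and 1.38 CPM in 0.7 MAC libraries, and its log2 fold change of 0.30 ± 0.41 (SE, adjusted p = 0.698) could not separate a rise from a fall. Without 2.0 MAC replicate 3 its sign turned (-0.041).

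**Figure D2:**
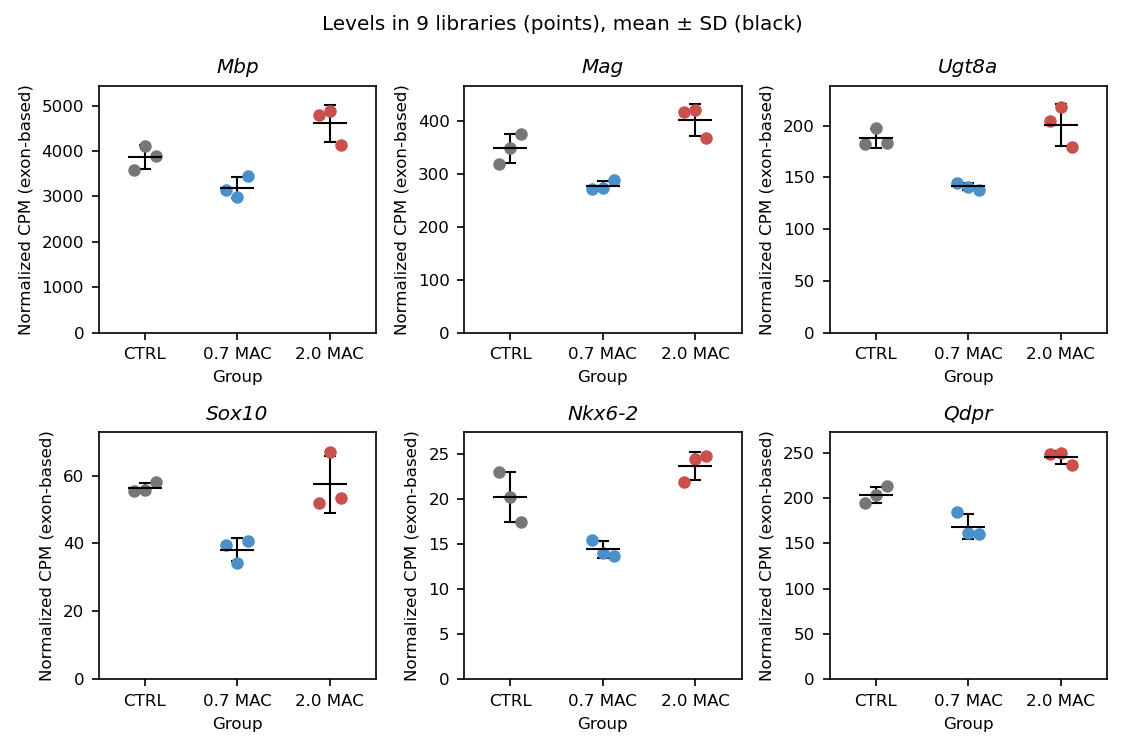
Exon-based CPM of 6 genes in the 9 libraries (points), with the mean and SD of each group in black and the axis from 0. For Mbp, Mag, Ugt8a, Sox10, Nkx6-2 and Qdpr the 3 points at 2.0 MAC lie above the 3 points at 0.7 MAC, and the CTRL points lie between them or level with 2.0 MAC.

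Within the 2.0 MAC group 23 of the 29 genes were lowest in replicate 3 and 17 were highest in replicate 2. In the 0.7 MAC group 21 were lowest in replicate 2, and in CTRL 23 were lowest in replicate 1. In each group, then, 1 library was the lowest for most of the genes. Averaged over the 29 genes, the level relative to the mean of the 9 libraries was 0.991, 1.07 and 1.062 in CTRL libraries, 0.859, 0.760 and 0.871 in 0.7 MAC libraries, and 1.20, 1.22 and 1.07 in 2.0 MAC libraries. The weakest 2.0 MAC library thus stood level with the upper pair of CTRL libraries. Cerebellar genes, whose tissue was to be dissected away, set some libraries apart. On the same relative scale the 8 tested cerebellar genes averaged 0.495, 0.484 and 0.621 in CTRL libraries, 2.12, 3.67 and 0.501 in 0.7 MAC libraries, and 0.909, 0.787 and 2.41 in 2.0 MAC libraries. By exons, the sevoflurane libraries in which most of the 29 genes were lowest were thus those with the most cerebellar signal of their group. They were 0.7 MAC replicate 2 and 2.0 MAC replicate 3. CTRL differed, since most genes were lowest in replicate 1 (0.495) while replicate 3 had the most cerebellar signal (0.621). By introns 18 of the 29 genes were lowest in replicate 2 of 0.7 MAC. In 2.0 MAC, however, 15 were lowest by introns in replicate 1 and 12 in replicate 3. In 0.7 MAC replicate 3, whose cerebellar level lay within the CTRL range, the 29 genes averaged 0.871, below each CTRL library. The 5 tested blood and pituitary genes averaged 0.653, 0.437 and 0.484 in CTRL libraries, 2.84, 2.68 and 0.797 in 0.7 MAC libraries, and 0.586, 1.44 and 1.41 in 2.0 MAC libraries. The part of these tissues in the levels of the 29 genes was not tested. The count of 27 higher in 2.0 than in 0.7 MAC libraries was 28 without 2.0 MAC replicate 3, 26 without 0.7 MAC replicate 1 and 25 without 0.7 MAC replicate 2.

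Against CTRL 5 of the 29 genes were higher in 2.0 MAC (3.36% of all genes were), and the median log2 fold change was 0.20, with 28 of 29 positive, beside a median of 0.0015 over all genes. The groups did not overlap in 6 of the 29 genes, against 13.1% of all genes in this direction. Mbp averaged 4608 ± 415 CPM in 2.0 MAC and 3861 ± 263 CPM in CTRL libraries (SD, n = 3 each), a log2 fold change of 0.26 (adjusted p = 0.0253 in edgeR). Qdpr averaged 245 ± 7.16 CPM in 2.0 MAC and 204 ± 9.03 CPM in CTRL libraries, a change of 0.26 (adjusted p = 0.0101). Both had every 2.0 MAC library above every CTRL library, which also had 3582, 4105 and 3895 CPM for Mbp and 195, 204 and 213 CPM for Qdpr. Plekhb1 was 0.22 higher (adjusted p = 0.0212), Fa2h 0.34 (adjusted p = 0.0286) and Trf 0.18 (adjusted p = 0.0464). Fa2h overlapped between the groups, since its 68.4 CPM in 2.0 MAC replicate 3 fell just under the 68.6 CPM of CTRL replicate 3. Sox10 (0.02), Aspa (0.01) and Enpp6 (0.03) were nearest to no difference, with SE of 0.096, 0.10 and 0.13. The count rested on single libraries. Leaving out 2.0 MAC replicate 2 gave 0 of 29 by edgeR (7 at an unadjusted p under 0.05) and leaving out CTRL replicate 1 gave 0 (8 unadjusted). It was 1 without 2.0 MAC replicate 1, and 9 without 2.0 MAC replicate 3. With all 9 libraries 12 genes passed unadjusted by edgeR and 6 passed adjusted by DESeq2.

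The 0.7 MAC group was under hyperoxia, and the study's methods also describe tracheal intubation under sevoflurane. Dose cannot be told apart from these in a comparison of that group with CTRL. That comparison was the third, and it shares its libraries with the others. In it 10 of the 29 genes were lower in 0.7 MAC (0.743% of all genes were lower), all 29 log2 fold changes were negative, and the median was -0.31, beside -0.0027 over all genes. In 22 of the 29 genes every 0.7 MAC library lay below every CTRL library, against 9.25% of all genes. Gpr37 had 123, 115 and 120.0 CPM in 0.7 MAC libraries and 146, 164 and 162 CPM in CTRL libraries, a fall of 0.40 on the log2 scale (adjusted p = 0.00628 in edgeR). Ugt8a averaged 141 ± 3.14 CPM in 0.7 MAC and 188 ± 9.01 CPM in CTRL libraries (SD, n = 3 each), with no overlap and a log2 fold change of -0.41 (adjusted p = 0.00664). Sox10 had 39.6, 34.2 and 40.6 CPM in 0.7 MAC libraries and 55.4, 55.9 and 58.1 CPM in CTRL libraries, the strongest fall of the 29 at -0.56 (adjusted p = 0.0107). The CTRL values of Sox10 were close together, with an SD of 1.48 CPM. Trf (-0.29), Mag (-0.33), Car2 (-0.27), Mog (-0.44), Qdpr (-0.27), Ermn (-0.38) and Aspa (-0.44) made up the rest of the 10, with adjusted p from 0.0172 to 0.0445. With Ugt8a, 5 of the 10 are lipid and metabolism genes, 3 are membrane genes, and Sox10 and Gpr37 are the other two. Mbp did not pass, at -0.27 (adjusted p = 0.0562), with 3142, 2998 and 3451 CPM in 0.7 MAC libraries, all below the 3582 CPM of the lowest CTRL library. This count too moved with single libraries. It was 4, 6 and 18 without 0.7 MAC replicates 2, 1 and 3, and 2, 3 and 16 without CTRL replicates 3, 2 and 1. At an unadjusted p under 0.05 it was 26 with all libraries. Markers of other tissues moved in the same comparison, where 125 of all 14140 tested genes were higher. Of 8 cerebellar genes 2 were higher in 0.7 MAC than in CTRL libraries, with a median log2 fold change of 1.80 and 6 of 8 higher at an unadjusted p. They were Cbln3, a gene of cerebellar granule cells (86.4 ± 93.6 CPM in 0.7 MAC and 3.07 ± 1.56 CPM in CTRL libraries, SD, n = 3 each), and Pcp2, a Purkinje cell gene (4.90 ± 4.11 CPM in 0.7 MAC and 0.205 ± 0.078 CPM in CTRL libraries). Of 5 blood and pituitary genes 2 were higher (1 by DESeq2), the globin gene Hba-a2 and the growth hormone gene Gh, with a median of 2.39. Of 15 midbrain and hindbrain genes 2 were lower, Slc6a5 (-0.42) and Slc6a3 (-0.47), with a median of -0.42. Of 12 thalamic and habenular genes 2 were lower, Slc17a6 (-0.34) and Plekhg1 (-0.48), with a median of -0.22. Their part in the difference of the 29 genes was not tested.

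**Figure D3:**
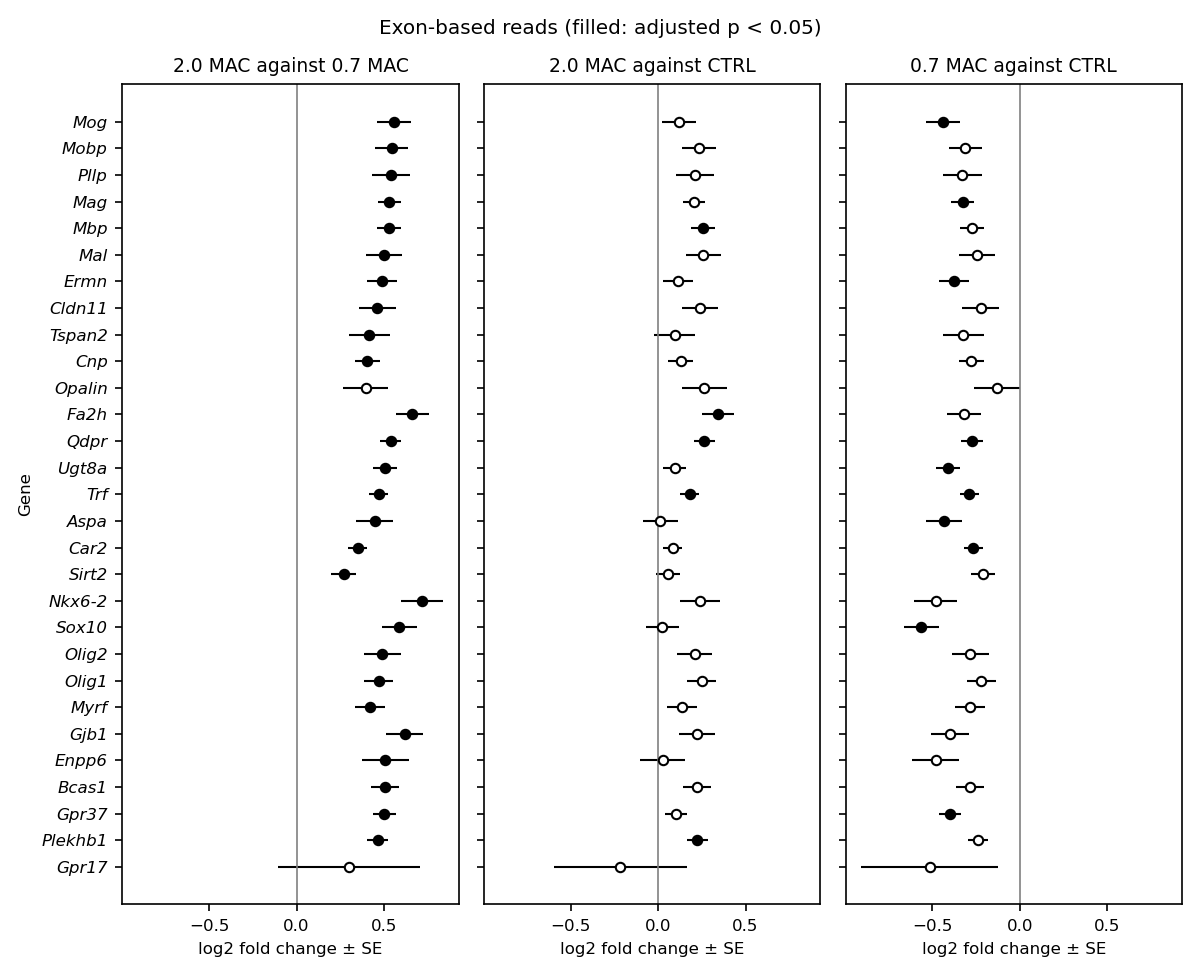
Log2 fold change of each of the 29 genes with its standard error (horizontal bar) in the 3 comparisons, from exon-based reads, where filled points had an adjusted p under 0.05. Nearly all points are filled and lie right of 0 for 2.0 MAC against 0.7 MAC (27 of 29), 5 are filled for 2.0 MAC against CTRL, and all 29 lie left of 0 for 0.7 MAC against CTRL with 10 filled.

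Reads on introns come mostly from unspliced RNA and were counted in the same libraries as a separate readout. Of the 29 genes 27 passed the filter on low counts (Olig1 and Gjb1 did not, with under 1 CPM in every library). Some of the 27 overlap other annotated genes, and whether reads of those genes enter the intron counts was not tested. In 2.0 MAC libraries 16 of the 27 were higher than in 0.7 MAC libraries (3.05% of 16142 genes were), and the median log2 fold change was 0.50, as by exons. The groups did not overlap in 20 of the 27, against 12.4% of all genes in this direction. Mag had 54.0, 56.9 and 55.2 intron CPM in 2.0 MAC libraries and 33.5, 30.5 and 38.0 in 0.7 MAC libraries, a rise of 0.70 (adjusted p = 0.00103). Mal rose by 0.63 and Ugt8a by 0.60 in the same comparison. Mbp had 665, 625 and 579 intron CPM in 2.0 MAC libraries and 428, 434 and 480.5 in 0.7 MAC libraries, a rise of 0.48 without overlap. Leaving out 2.0 MAC replicate 2 brought the count to 6 and the median to 0.39, and leaving out 0.7 MAC replicate 2 brought the count to 10.

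Of the genes called lower by introns at the light dose, most were lipid and metabolism genes. In 0.7 MAC libraries 10 of the 27 genes were lower than in CTRL (2.47% of all genes were), and 6 of those were among the 7 lipid and metabolism genes, all but Sirt2. Of the 11 membrane genes 1 was called, but 10 had negative log2 fold changes. Sox10 (-0.59, adjusted p = 0.11) and Mobp (-0.47, adjusted p = 0.0702) fell further than the called Fa2h and did not pass in edgeR. The groups did not overlap below in 16 of the 27, against 11.2% of all genes. Ugt8a had 46.1, 38.4 and 43.1 intron CPM in 0.7 MAC libraries and 100.1, 92.1 and 78.3 in CTRL libraries. Each 0.7 MAC library was thus far under each CTRL library, with a log2 fold change of -1.08 ± 0.10 (SE, adjusted p = 2.41e-04), beside -0.41 by exons. The intron share of its reads averaged 44.9% in CTRL, 34.2% in 0.7 MAC and 34.1% in 2.0 MAC libraries. Trf (-0.73, adjusted p = 0.00481), Car2 (-0.60, adjusted p = 0.00115) and Enpp6 (-0.62, adjusted p = 0.0138) followed. Car2 had 35.3, 32.5 and 30.4 intron CPM in 0.7 MAC libraries and 51.2, 48.1 and 49.9 in CTRL libraries, which did not overlap. Bcas1 (-0.53), Myrf (-0.51), Fa2h (-0.42), Cnp (-0.42), Aspa (-0.41) and Qdpr (-0.31) completed the 10. Among the 10, Trf overlaps another annotated gene on the same strand, and Enpp6, Bcas1, Cnp and Qdpr overlap others on the opposite strand. The part of those genes in the intron counts was not tested. Mal and Sirt2 had intron log2 fold changes of 0.01 and 0.09 and did not pass. The difference between the intron and exon fold changes was not tested, and its median over the 27 genes was -0.06, beside -0.01 over all genes with both readouts. The count of 10 was 5 when CTRL replicate 2 was left out and 6 when 0.7 MAC replicate 1, 0.7 MAC replicate 2 or CTRL replicate 3 was.

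In 2.0 MAC libraries against CTRL, 4 genes were higher by introns (4.13% of all genes were) and 1 was lower (5.92% of all genes were). Mal had 75.7, 68.8 and 58.8 intron CPM in 2.0 MAC libraries and 37.1, 50.8 and 42.2 in CTRL libraries (0.64, adjusted p = 0.00581). Mag had 54.0, 56.9 and 55.2 intron CPM in 2.0 MAC libraries and 38.6, 38.9 and 44.8 in CTRL libraries (0.44, adjusted p = 0.00702). Mbp (0.34, adjusted p = 0.0177) and Sirt2 (0.30, adjusted p = 0.0102) were the others. In 4 of the 27 genes, the same 4, every 2.0 MAC library lay above every CTRL library. That is near the 14.2% of all genes in this direction. The gene called lower was Ugt8a, with 60.9, 71.6 and 60.8 intron CPM in 2.0 MAC libraries and 100.1, 92.1 and 78.3 in CTRL libraries (-0.48, adjusted p = 0.00891). By exons Ugt8a was 0.10 higher and did not pass. Car2 had 41.0, 44.3 and 41.3 intron CPM in 2.0 MAC libraries and 51.2, 48.1 and 49.9 in CTRL libraries. It did not pass (-0.24, adjusted p = 0.0573). The Ugt8a call was lost without 2.0 MAC replicate 3. The median over the 27 genes was 0.10 and turned to -0.06 without 2.0 MAC replicate 2.

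**Figure D4:**
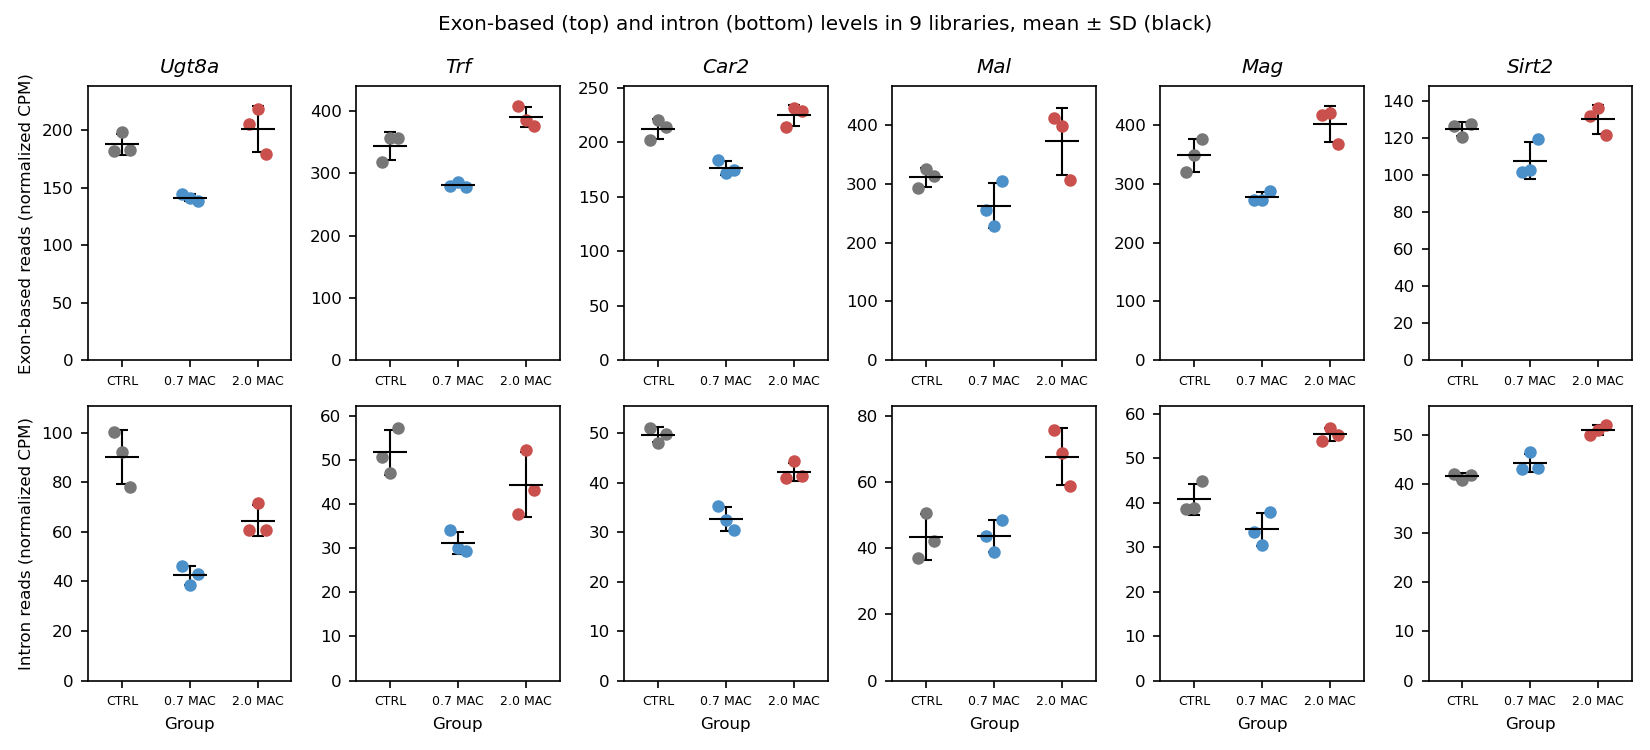
Exon-based CPM (top row) and intron CPM (bottom row) of 6 genes in the 9 libraries (points), with the mean and SD of each group in black and each axis from 0. For Ugt8a and Car2 the exon levels of CTRL and 2.0 MAC libraries are close while the intron levels of CTRL lie above both sevoflurane groups, and for Mal, Mag and Sirt2 the intron levels are highest at 2.0 MAC.

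Other gene lists were set beside the 29. Over all 14140 tested genes, 845 were higher and 1235 lower in 2.0 than in 0.7 MAC libraries. Against CTRL 475 of all genes were higher in 2.0 MAC and 105 lower in 0.7 MAC libraries. Of 39 tested genes of a list of other mature oligodendrocyte genes, 26 were higher in 2.0 than in 0.7 MAC libraries, with a median log2 fold change of 0.42. Among them were Tmem88b (0.51), Apod, a lipid-binding lipocalin (0.50), Ndrg1, a stress-responsive gene of myelinating cells (0.42), and the protease gene Klk6 (0.75, 26.2 ± 3.16 CPM in 2.0 MAC and 15.5 ± 1.54 CPM in 0.7 MAC libraries, SD, n = 3 each). Against CTRL 8 of the 39 were higher in 2.0 MAC and 4 lower in 0.7 MAC libraries. Of 20 precursor genes 1 rose, Gpr37l1 (0.21), and 1 fell, Xylt1 (-0.30), with a median of 0.05. Both counts are no larger than the shares over all genes. The chondroitin sulfate proteoglycan gene Cspg5 had -0.22 and did not pass. Of 10 genes of newly formed oligodendrocytes 3 rose, namely Tcf7l2 (0.74), Slc12a2, an ion cotransporter (0.29), and Tmem163 (0.39). Tcf7l2 is also a marker of thalamic neurons. Of 6 tested Schwann cell genes 1 rose, Pmp22 (0.50), which oligodendrocytes also express.

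Myelin draws on sterol synthesis, and 8 of 22 cholesterol synthesis genes were higher in 2.0 than in 0.7 MAC libraries, with a median of 0.23. Against CTRL 15 of the 22 were higher in 2.0 MAC libraries, at a median of 0.36, and 3 were higher in 0.7 MAC libraries, at a median of 0.17. Insig1, a sterol sensor of the endoplasmic reticulum, averaged 138 ± 16.6 CPM in CTRL, 175 ± 8.62 CPM in 0.7 MAC and 231 ± 11.9 CPM in 2.0 MAC libraries (SD, n = 3 each). It stood 0.75 above CTRL at 2.0 MAC (adjusted p = 1.72e-05 in edgeR) and 0.35 at 0.7 MAC (adjusted p = 0.0297). The isomerase gene Idi1 was 0.57 above CTRL at 2.0 MAC and the demethylase gene Cyp51 0.39. Of 11 genes of the paranode and juxtaparanode, where myelin meets the axon, 5 rose and 1 fell between 2.0 and 0.7 MAC libraries. Epb41l3, a scaffold of the paranode, rose by 0.40, Cntn2 by 0.26 and the potassium channel gene Kcna2 by 0.23, while Nrcam fell by 0.29 on the log2 scale.

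Markers of brain regions moved between the same groups. Of 15 striatal genes 14 were lower in 2.0 MAC than in 0.7 MAC libraries and 14 lower than in CTRL. Of all 14140 tested genes 1235 and 908 were lower in these comparisons. Their summed level was 1940 to 2387 CPM in CTRL, 1523 to 2387 CPM in 0.7 MAC and 874 to 1004 CPM in 2.0 MAC libraries. Pde10a fell by 1.34 on the log2 scale against 0.7 MAC, with Foxp1 at -0.89 and Rgs9 at -1.19. Of 14 tested cortical and hippocampal genes 9 were lower in 2.0 than in 0.7 MAC libraries (summed 951 to 1244 CPM in CTRL, 1177 to 1384 CPM in 0.7 MAC and 774 to 846 CPM in 2.0 MAC libraries). Slc17a7, a glutamate transporter of cortical neurons, fell by 1.83 and Tbr1 by 2.79 on the log2 scale, with Neurod6 at -2.24 and Wfs1 at -0.67. Of 15 tested midbrain and hindbrain genes 8 were higher in 2.0 than in 0.7 MAC libraries (summed 286 to 384 CPM in CTRL, 262 to 279.9 CPM in 0.7 MAC and 430 to 464 CPM in 2.0 MAC libraries), among them the glycine receptor gene Glra1 (0.90), Slc6a5 (0.75), Slc6a3 (0.67) and Tph2 (0.88). Of 14 tested hypothalamic genes 7 were higher (summed 88.6 to 112 CPM in CTRL, 74.0 to 91.2 CPM in 0.7 MAC and 129.7 to 142 CPM in 2.0 MAC libraries), with Pmch at 0.95, Lhx9 at 0.60, Oxt at 0.83 and Crh at 1.01. Of 12 thalamic and habenular genes 5 were higher and 1 lower, with Slc17a6 at 0.62, Prkcd at 0.55, Calb2 at 0.49 and Plekhg1 at 0.49. The 29 genes themselves summed to 8367 to 9487 CPM in CTRL, 6871 to 7904 CPM in 0.7 MAC and 9371 to 11031 CPM in 2.0 MAC libraries. The part of regional makeup in the difference of the oligodendrocyte genes was not tested, and dose and regional makeup cannot be told apart in these 9 libraries.

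**Figure D5:**
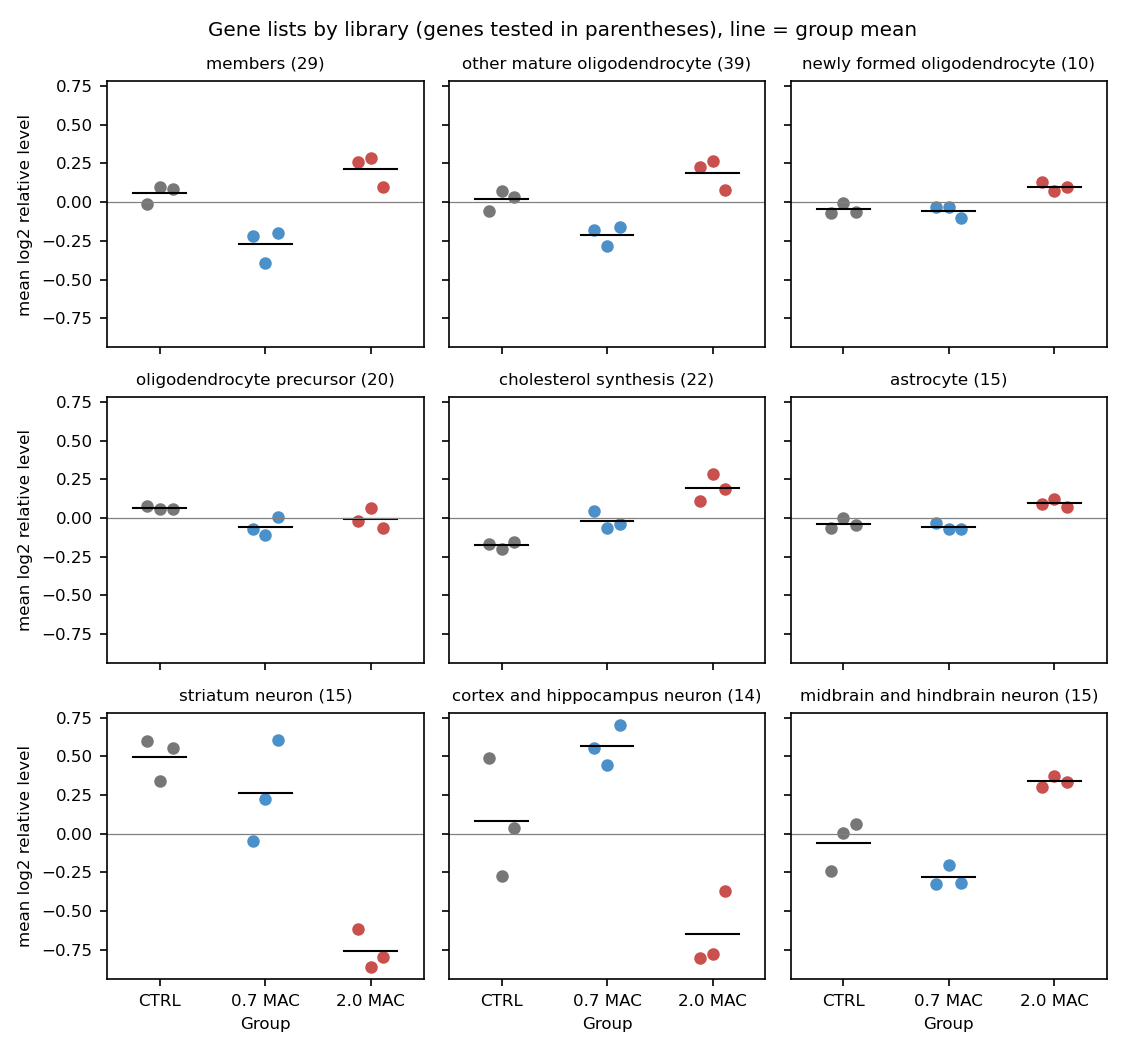
Mean log2 level relative to the 9-library mean, over the tested genes of 9 lists, in each library (points) with the group mean as a line. The 29 genes (members) and the other mature oligodendrocyte genes are lowest at 0.7 MAC and highest at 2.0 MAC, as are midbrain and hindbrain genes, while striatal and cortical genes are lowest at 2.0 MAC and cholesterol synthesis genes are lowest in CTRL.

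Markers of other cell types were compared between 2.0 and 0.7 MAC libraries, where 845 of all 14140 tested genes rose and 1235 fell. Of 15 astrocyte genes 9 rose and 2 fell, with Gfap, an intermediate filament gene, at 0.52, Acsbg1 at 0.27, Fgfr3 at 0.38 and the glutamate transporter gene Slc1a3 at -0.41. Of 12 pan-neuronal genes 4 rose and 2 fell, with the neurofilament genes Nefh and Nefm at 0.71 and 0.55, Syt1 at -0.54 and Rbfox3 at -0.42. Of 12 endothelial genes 1 rose, Cdh5 (0.30, adjusted p = 0.0387 in edgeR), a count near the share over all genes. Cldn5, Ly6c1 and Slc2a1 had 0.44, 0.27 and 0.22 and did not pass. Of 12 microglial genes none passed by edgeR or DESeq2, 1 had an unadjusted p under 0.05 by edgeR, and the smallest adjusted p was 0.123 for Siglech (-0.41). Of the 8 cerebellar genes, which differed widely between libraries of 1 group, 1 fell, Itpr1 (-1.01). Of 8 choroid plexus genes Kl (-0.75) and Ttr (-0.92) fell, and of 5 tested blood and pituitary genes Hba-a2 (-1.61) fell. By DESeq2 1 cerebellar and 1 choroid plexus gene were lower, 0 blood and pituitary genes were lower and 0 endothelial genes were higher. No gene of these lists was at 0 in all 9 libraries.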

How the data were processed

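Total RNA of 9 libraries was depleted of ribosomal RNA and sequenced with a directional kit. Per the labels and the methods, the authors used CLC Genomics Workbench for mapping (GRCm38/mm10) and gene-level counting. The deposited counts used here are exon-based reads (unique exon reads plus exon-exon junction reads) and total intron reads. The deposited RPKM values, which the authors scaled to gene length and library size, matched total exon reads within 0.001 in each gene, so reads shared between genes enter them. They served only in an alternative, and levels between genes are CPM per kilobase, which departs from the plan. Of 198 per-sample columns 137 were not used, and columns with the authors' own fold changes and p-values were set aside.

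Counts were fitted in edgeR 4.0.16 (R 4.3.3) with TMM factors, filterByExpr at a minimum count of 10, all 9 libraries and group as factor, with no covariate, and a gene was called at an adjusted p under 0.05. The fit was tested on simulated data. P-values cover counting error and the spread of 3 libraries per group. All 29 genes were to be named for 2.0 against 0.7 MAC, in comparisons with CTRL Mbp and those called, or the 5 smallest p where fewer, and of other lists the 4 with the smallest p. Genes named beyond this rule were chosen after their values were seen. The members and lists were chosen with earlier results of these data known. Alternatives were DESeq2 1.42.0, other scalings, no filter, gene-level reads, limma 3.58.1 on log2(RPKM + 0.1) and log2(RPKM + 1), a replicate block, 6 libraries only and leaving out each library. Counting every exon read was added after the data were seen. Some genes of the other lists are not reported here by name.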

Additional observations from a re-analysis of the deposited data

How the results depend on the processing

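The count of members higher in 2.0 than in 0.7 MAC libraries kept its size under every alternative, between 24 and 28 of 29 when 1 library was left out, with medians of 0.43 to 0.56. Only the median under limma on log2(RPKM + 0.1) lay further off, at 0.59, where the median of all genes was also shifted, by 0.095. Scaling changed the balance of all genes: 845 were higher and 1235 lower with TMM, 1128 and 1029 with upper-quartile factors, 1087 and 1077 with library totals, 1705 and 723 with limma on log2(RPKM + 0.1), and 1739 and 714 on log2(RPKM + 1). The 5 members higher in 2.0 MAC than in CTRL became 8 with library totals, 11 with no filter and 3 with total gene reads, and 0 to 9 when 1 library was left out. The 10 lower in 0.7 MAC than in CTRL became 25 with no filter, 17 with unique gene reads, 6 with only the 6 libraries of both groups, 2 with limma on either RPKM scale, and 2 to 18 when 1 library was left out. By introns the 10 became 16 with no filter and 5 to 11 when 1 library was left out, the 16 higher in 2.0 than in 0.7 MAC libraries became 6 to 18 with medians of 0.39 to 0.55, and in 2.0 MAC against CTRL the 1 lower became 0 to 1 with medians of -0.0604 to 0.11. Without the filter 22435 genes were tested by exons and 586 were higher and 327 lower in 0.7 MAC than in CTRL, beside 125 and 105 with it. Gpr17 reversed, to -0.041, without 2.0 MAC replicate 3, and ranged up to 0.58 when 1 library was left out. The causes were not tested.

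Replicate numbers did not pair the libraries: the residual correlations of the 9 same-numbered pairs ran from -0.21 to -6.85e-05. With a replicate block the members higher in 2.0 MAC than in CTRL were 2, those lower in 0.7 MAC than in CTRL 3 by exons and 6 by introns, and those higher in 2.0 than in 0.7 MAC libraries 26.

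Gpr17 rests on 82 assigned exon-based reads over the 9 libraries, and the introns of Olig1 and Gjb1 were not tested.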
